A study of Mus musculus with 6 samples.

Results

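The interferon-inducible GTPases are enzymes that bind and hydrolyse GTP and whose genes are switched on by interferons. They were followed here as 10 gene names taken from 2 families, the guanylate-binding proteins (GBP2, GBP3, GBP4 and GBP6) and the immunity-related GTPases (IGTP, IRGM1, IRGM, IIGP1, IIGP2 and TGTP). Every array feature whose gene name, ignoring case, was one of these was taken, and each was kept as a value of its own. Of the 10 names, 9 were found among the 30854 gene names of the array, with 16 of its 45281 probes, and IRGM matched none.

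Interferons bind receptors on the cell surface, and JAK kinases attached to these receptors phosphorylate STAT transcription factors. Activated STAT factors bind the gamma-activated sequence (GAS) of a promoter, while complexes that contain IRF9, as well as several other IRF factors, bind the interferon-stimulated response element (ISRE). The GTPases made in response gather on the membranes around intracellular bacteria and parasites and help to destroy these compartments. They are best known from macrophages and fibroblasts, and many other cells, muscle cells included, make them when exposed to interferon.

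The cells were C2C12, an established line of mouse muscle precursors, which join into myotubes with many nuclei once serum is reduced. Myoblasts in medium with 10% serum received 60 nM of scramble siRNA (Scramble, 3 samples) or of siRNA against *Dj1*, also known as *Park7* (siDJ-1, 3 samples). After 48 h both groups were switched to 2% serum, and RNA was taken after 96 h of differentiation. Each sample was hybridized to an array of its own on a single Illumina mouse BeadChip, and the comparison asks which transcripts differ in myotubes with less *Dj1*. Each group received 1 kind of siRNA, and neither untransfected cells nor cells given interferon were analysed here, so an effect of losing *Dj1* and a response to either siRNA cannot be told apart. The labels do not say that the samples of a group were separate cultures, so the p-values measure only the spread between these samples, which may be technical. The number of arrays limits the precision.

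Signals are given as deposited, in arbitrary fluorescence units that still include the background, and probes differ in brightness, so the level of 1 probe is not set against that of another. A probe counted as detected on an array at a detection p-value under 0.05. The lowest signal of a detected probe was 187, 187 and 167 in Scramble and 171, 177 and 162 in siDJ-1 myotubes, replicates 1, 2 and 3 in this and each later sentence. Between 16985 and 18179 probes were detected on a Scramble array and between 18408 and 18857 on a siDJ-1 array. Fold changes are differences of background-corrected, quantile-normalized log2 values, siDJ-1 minus Scramble, each with its standard error (SE), and a probe was called changed at an adjusted p under 0.05 in limma.

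The label was checked on the targeted gene first. The probe of *Park7* (ILMN_2728754) read 12019.5, 10900.4 and 12251 in Scramble and 5935, 6586 and 4234 in siDJ-1 myotubes. All 3 siDJ-1 arrays lay below all 3 Scramble arrays, and the log2 fold change was -1.16 (SE 0.14, adjusted p = 0.00344), which left 44.7% of the Scramble value. Myotube markers were present, with 34 to 36 of their 43 probes detected on each array. They did not keep the same level in both groups, since 15 of the 36 tested probes were called lower and 2 higher. Across the array 13.6% of the tested probes were called lower and 16.5% higher. The median log2 fold change of the markers was -0.29. The median was -0.07 when arrays were aligned at their 75th percentile and not quantile normalized, and -0.12 with this alignment and no background correction, where 4 were called higher in each case. With any 1 array other than Scramble replicate 3 left out 1 was called higher. Whether the state of differentiation has a part in the values of the GTPases was not tested. In bulk RNA, fewer cells that make a transcript and less of it per cell cannot be told apart.

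GTPase transcripts were lower in siDJ-1 myotubes at most probes bright enough to test. Of the 16 probes 11 were detected on at least 3 arrays and were tested. Of these 11, 8 were called lower, against 13.6% of the 17890 probes tested across the array, where 30.1% were called in either direction. The members were chosen with earlier results of these data known, so the shares describe them and are not independent support. The 8 called probes belonged to 6 genes, listed as GBP2, GBP3, GBP6, IGTP, IIGP2 and IRGM1. They kept between 30.8% and 54.0% of their Scramble value after background correction. The 30.8% is that of ILMN_2711172, which was detected on 1 siDJ-1 array and entered the test mainly through the Scramble arrays. The next lowest is 34.7%. The sizes depend on the correction, as the log2 fold changes of the 8 probes lay between -1.70 and -0.89 with it and between -1.38 and -0.61 without it. Of the 8 probes detected on all 6 arrays 7 were called lower. The number called higher was 0 by limma, against 16.5% of tested probes across the array, and it was 0 at an unadjusted p under 0.05 and 0 with the methods' t-test. The median log2 fold change of the 11 probes was -0.98, with an interquartile range of -1.42 to -0.78, while that of the tested probes across the array was 0.05 with a range of -0.26 to 0.34. Without background correction the median of the 11 probes was -0.76. The other 5 probes were too dim to test and are given apart, so these counts do not describe every member. With siDJ-1 replicate 1 or siDJ-1 replicate 3 left out 2559 and 2712 probes were called across the array, against 5387 with all 6 arrays, and the number of GTPase probes called lower was 8 in each case.

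**Figure D1:**
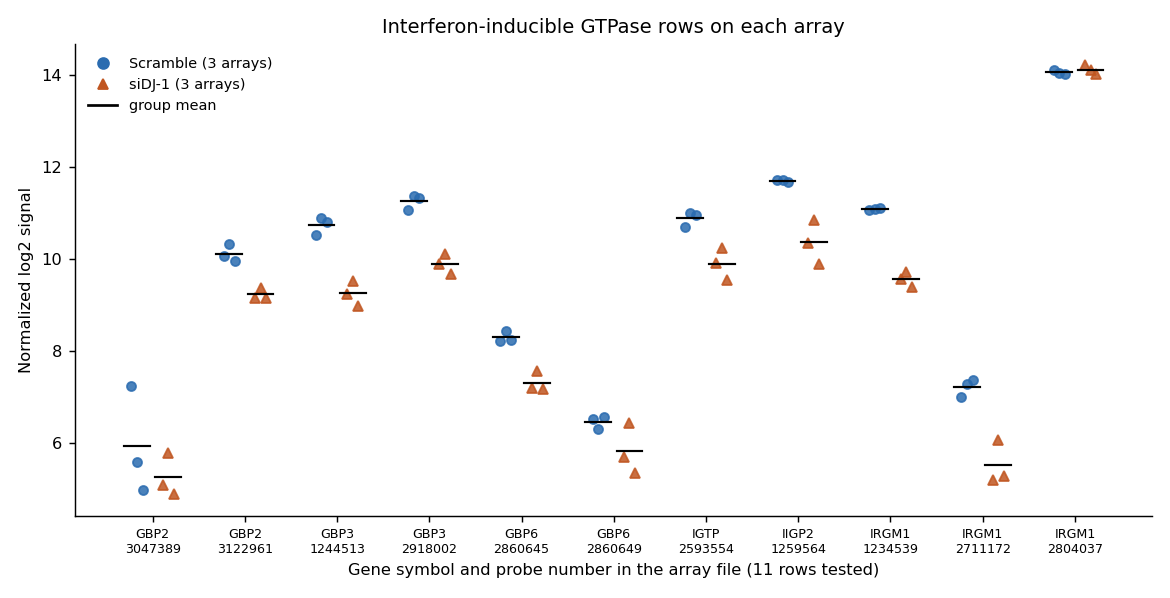
Normalized log2 signal of the 11 tested GTPase probes on the Scramble (circles) and siDJ-1 (triangles) arrays, 3 each, with the group means as lines. At the called probes the siDJ-1 points lie below the Scramble points, at the brightest probe of IRGM1 the groups overlap, and levels of different probes cannot be compared.

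The guanylate-binding proteins are large GTPases of the dynamin superfamily that assemble into coats on microbial membranes. *Gbp3* had 2 probes. ILMN_2918002 read 2294, 2808 and 2579.9 in Scramble and 1079, 1368 and 821 in siDJ-1 myotubes. ILMN_1244513 read 1641, 2057 and 1827 in Scramble and 732, 943 and 555 in siDJ-1 myotubes. On both probes every siDJ-1 array was well below every Scramble array, with siDJ-1 replicate 2 the highest and siDJ-1 replicate 3 the lowest of their group. The log2 fold changes were -1.36 (SE 0.15, adjusted p = 0.0031) and -1.48 (SE 0.17, adjusted p = 0.00336), so that 38.9% and 35.8% of the Scramble value remained.

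*Gbp2*, whose product is recruited to vacuoles that hold parasites, had 3 probes. The bright one (ILMN_3122961) read 1237, 1433 and 1096.5 in Scramble and 694, 858 and 611 in siDJ-1 myotubes. The groups were apart, and the transcript fell to 54.0% of the Scramble value, a log2 fold change of -0.89 (SE 0.13, 95% confidence interval -1.20 to -0.58, adjusted p = 0.00557). A dim probe (ILMN_3047389) read 293, 189 and 149 in Scramble and 162, 194 and 146 in siDJ-1 myotubes. It was detected on 2 Scramble arrays and 1 siDJ-1 array, and its groups overlapped because only Scramble replicate 1 stood high. Its log2 fold change of -0.68 (SE 0.57, adjusted p = 0.404) was not called. It was -0.02 without Scramble replicate 1, -1.16 without Scramble replicate 3 and -0.26 without background correction. The remaining probe of *Gbp2* (ILMN_2605602) was not detected on any array.

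The probes listed as GBP6 carry the gene number that RefSeq now names *Gbp7*. ILMN_2860645 read 448, 500.1 and 426 in Scramble and 278, 340.4 and 249 in siDJ-1 myotubes. The groups were apart, and the log2 fold change was -0.98 (SE 0.14, adjusted p = 0.00509), which left 50.6% of the Scramble value. As the signal of this probe is not far above background, the size of the change rests on the background correction, and it was -0.61 without it. ILMN_2860649 read 231, 222 and 219 in Scramble and 183, 231 and 160.1 in siDJ-1 myotubes. Here siDJ-1 replicate 2 stood as high as the Scramble arrays and the groups overlapped. The log2 fold change of -0.64 (SE 0.27, 95% confidence interval -1.28 to 0.01, adjusted p = 0.121) was not called, and without siDJ-1 replicate 2 it was -0.92 (adjusted p = 0.017, against 0.0912 to 0.303 in the other settings). It was -0.39 without siDJ-1 replicate 3, -0.21 without background correction, and -0.19 when the 75th percentile shift was used as well. *Gbp4* had a single probe (ILMN_2606792), which was not detected on any array.

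The immunity-related GTPases are smaller and fall into regulators and effectors. The regulators IRGM1, IIGP2 (now *Irgm2*) and IGTP (also called *Irgm3*) reside on the cell's own membranes and hold the effectors in their inactive form. *Igtp* (ILMN_2593554) read 1826, 2203 and 2021 in Scramble and 1091, 1497 and 769 in siDJ-1 myotubes. The groups did not overlap, but siDJ-1 replicate 2 came closer to the Scramble arrays than the other two. The transcript was at 50.6% of the Scramble value (log2 fold change -0.98, SE 0.19, 95% confidence interval -1.44 to -0.52, adjusted p = 0.0126), and this call was lost with the methods' t-test (adjusted p = 0.0546, against 0.000165 to 0.0469 in the other settings).

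*Irgm2* (ILMN_1259564) read 3496.5, 3499.7 and 3232 in Scramble and 1425, 2177 and 940.1 in siDJ-1 myotubes. The Scramble arrays were close together while the siDJ-1 arrays were spread widely, all of them below the Scramble arrays. In normalized log2 units the groups were at 11.69 ± 0.03 and 10.35 ± 0.48 (SD, n = 3 each), a log2 fold change of -1.33 (SE 0.23, adjusted p = 0.00854). The value lay between -1.58 and -1.10 when single arrays were left out.

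*Irgm1* had 3 probes, all of which RefSeq assigns to the same gene, and they did not give the same picture. ILMN_1234539 read 2298, 2303 and 2236 in Scramble and 876, 1062 and 702 in siDJ-1 myotubes. The groups were far apart with little spread within either, and the transcript fell to 34.7% of the Scramble value (log2 fold change -1.53, SE 0.11, 95% confidence interval -1.80 to -1.26, adjusted p = 0.00234). ILMN_2711172 read 268, 305 and 287 in Scramble and 166, 209 and 159 in siDJ-1 myotubes. It was detected on all 3 Scramble arrays but on 1 siDJ-1 array, so it entered the test mainly through the group in which it was high, and the p from the filtered probes is not given. With no filter it was called lower as well (adjusted p = 0.0102). Its log2 fold change was -1.70 with background correction and -0.67 without it, and its size is therefore uncertain.

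The brightest probe of *Irgm1* (ILMN_2804037) differed. It read 17005, 17140.2 and 15820 in Scramble and 19405, 19535 and 15627 in siDJ-1 myotubes, so that the lowest and the highest readings both came from siDJ-1 arrays. The groups overlapped, and the log2 fold change was 0.05 (SE 0.10, 95% confidence interval -0.18 to 0.29, adjusted p = 0.718). It lay between 0.00 and 0.23 over the 14 other settings and was called in 0 of them. The change at ILMN_1234539 differed from that at the brightest probe by -1.58 on the log2 scale, a description for which no test is given, as the probes were set side by side after their values were seen. Which part of the transcript each probe measures, and whether the bright probe also binds another transcript, was not tested. The signal of this probe was below the highest signal of any probe on the same arrays, which lay between 44330 and 52360.

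**Figure D2:**
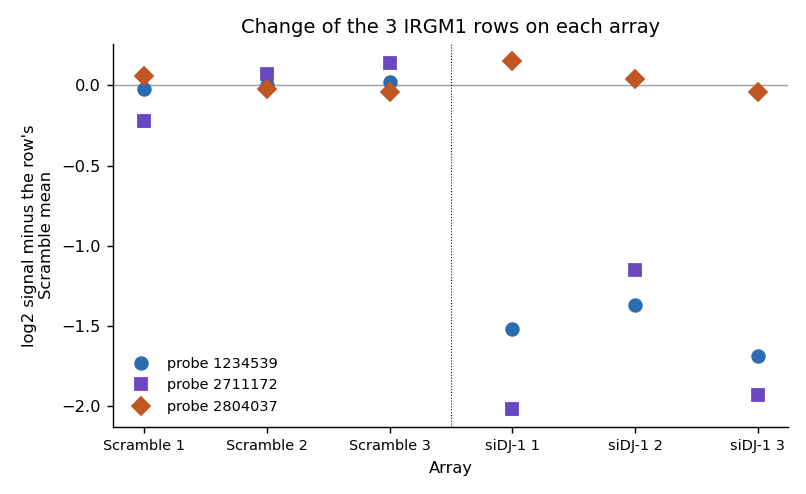
Deviation of the 3 *Irgm1* probes from their own Scramble mean (normalized log2 units) on each of the 6 arrays. The siDJ-1 arrays lie between -1.69 and -1.37 for ILMN_1234539 and between -2.02 and -1.15 for ILMN_2711172, but between -0.04 and 0.15 for the brightest probe ILMN_2804037.

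The effectors are the GTPases that load onto the membrane of the parasite's vacuole. Of the listed effectors, TGTP and IIGP1, no probe was bright enough to test. TGTP (now *Tgtp1*) had a probe (ILMN_2754158) that read 186, 207 and 139 in Scramble and 144, 157 and 144 in siDJ-1 myotubes. It was detected on Scramble replicate 2 alone and was not tested, and the other probe listed as TGTP (ILMN_1260487, without a RefSeq match) and the only probe of *Iigp1* (ILMN_1229996) were not detected on any array. Of the 16 GTPase probes, 11, 12 and 10 were detected in Scramble and 9, 11 and 8 in siDJ-1 myotubes.

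The siDJ-1 arrays differed among themselves in a way that many of the probes shared. Averaged over the 11 tested probes after centring each on its own mean, the log2 values were 0.57, 0.55 and 0.45 in Scramble and -0.59, -0.20 and -0.78 in siDJ-1 myotubes. Replicate 2 was the highest of the siDJ-1 arrays at 10 of the 11 probes and replicate 3 the lowest at 9. How many tested probes across the array have this order was not counted. Before normalization, the summed signal of the antiviral effectors was 75170, 84208 and 60596 on the siDJ-1 arrays. That of the myotube markers was 447889, 505159 and 398249. The order is therefore not shown to be particular to the GTPases. The normalized log2 values of *Park7* were 12.48, 12.49 and 12.15 in siDJ-1 myotubes, so that it was lowest on replicate 3 while replicates 1 and 2 were level, and whether the depth of the knockdown has a part in the spread of the GTPases was not tested. With siDJ-1 replicate 2 left out 9 GTPase probes were called lower. The standard error over the beads of a probe was larger on the Scramble arrays, with a median over the tested GTPase probes of 6.01%, 3.95% and 5.86% of the signal against 3.91%, 3.74% and 3.66% on the siDJ-1 arrays, and its part in the calls was not tested.

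The genes with the nearest profile over the 6 arrays, by root mean square distance of centred log2 values from this average, were *Galnt1* (0.0398), *Tbx15* (0.0515), *Lmod3* (0.0599), *Pdss1* (0.0635) and *Zfp672* (0.0654). GTPase and pathway genes were left out of this search. *Galnt1*, whose product starts O-linked glycosylation, read 822, 794 and 749.6 in Scramble and 425, 551 and 354 in siDJ-1 myotubes. *Lmod3*, which encodes a protein of the muscle thin filament, read 2241, 2141 and 1871 in Scramble and 1141, 1499.5 and 834 in siDJ-1 myotubes. Both were lower on every siDJ-1 array with replicate 2 the highest of that group, which follows from choosing genes by this profile. The distances of the GTPase probes themselves ranged from 0.0955 for ILMN_2860645 of *Gbp7* to 0.682 for the dim probe of *Gbp2*, and the brightest *Irgm1* probe was at 0.576.

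Most of the genes sit in clusters. In RefSeq the Gbp genes of the mouse lie in a cluster on chromosome 3 (*Gbp5*, *Gbp7*, *Gbp3*, *Gbp2b* and *Gbp2*, in this order) and another on chromosome 5 (*Gbp8*, *Gbp9*, *Gbp4*, *Gbp10*, *Gbp6* and *Gbp11*). Of the 10 probes of the chromosome 3 genes, 7 were detected on at least 1 array and were tested. Of these 7, 4 were called lower, against 13.6% of the tested probes across the array, and these 4 are GTPase probes already counted above. Of the 8 probes of the chromosome 5 genes, 1 was detected on at least 1 array, 0 were tested, and the highest signal among them was 217. On chromosome 11 the immunity-related genes *Irgm1*, *Tgtp1*, *Ifi47*, *Gm12250*, *Igtp* and *Irgm2* had 8 probes. Of these, 6 were tested and 5 called lower, against the same 13.6%. Apart from the probe of *Ifi47*, a relative outside the list, these called probes were also counted above.

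The promoters of the GTPase genes were searched for the cores of the binding elements named above. The core of the ISRE was taken as GAAA, any 2 bases and GAAA again, and that of the GAS as TTCNNNGAA. Both were searched on either strand of the 250 bases before each start in RefSeq (GRCm38.p6), and matches of an ISRE and a GAS core overlapped in 18 of the 32851 windows. An ISRE match was found in 2.98% of the windows, a GAS match in 7.02% and both in 0.332%. The 6 listed genes with a called probe all had a window, and all 6 had an ISRE match in it, while 3 (*Gbp7*, *Igtp* and *Irgm2*) also had a GAS match. *Gbp3* has a further start whose window holds neither. The matches began between 24 and 64 bases before the start for the ISRE of the called genes. *Tgtp1*, which was too dim to test, has both elements, and *Gbp4* and *Iigp1* had no window in the table. A match is a description of the letters and not evidence of binding.

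The stretches around these matches are shown because they hold the ISRE match that the listed genes with a called probe, and *Tgtp1*, have in common. The relative *Ifi47*, also called lower, has no match in its window, and whether the element has a part in the changes was not tested. All are on GRCm38.p6 and from RefSeq, upstream of the start and outside that transcript, 5′ to 3′ on the strand of the gene, with capitals for letters that belong to an ISRE or GAS match. Those of *Gbp2* (chr3:142620584-142620623), *Gbp3* (chr3:142559979-142560024) and *Gbp7* (chr3:142530263-142530302) are on the plus strand. Those of *Igtp* (chr11:58199502-58199541) and *Irgm2* (chr11:58214893-58214932) are on the plus strand, and those of *Irgm1* (chr11:48871425-48871470) and *Tgtp1* (chr11:48992304-48992343) are on the minus strand.
Gbp2: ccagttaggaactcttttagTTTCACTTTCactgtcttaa
Gbp3: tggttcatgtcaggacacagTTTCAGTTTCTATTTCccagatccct
Gbp7: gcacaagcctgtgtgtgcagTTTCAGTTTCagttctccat
Irgm1: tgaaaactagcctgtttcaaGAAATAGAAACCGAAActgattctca
Igtp: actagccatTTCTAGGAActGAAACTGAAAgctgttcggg
Irgm2: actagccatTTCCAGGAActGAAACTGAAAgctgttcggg
Tgtp1: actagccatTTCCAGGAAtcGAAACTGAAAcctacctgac

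In *Gbp2*, *Gbp3* and *Gbp7* the ISRE core stands on the opposite strand to the gene, and in *Irgm1*, *Igtp*, *Irgm2* and *Tgtp1* it stands on the strand of the gene. *Gbp3* and *Irgm1* each hold 2 overlapping matches. In *Igtp*, *Irgm2* and *Tgtp1* a GAS match lies 2 bases before the ISRE match. Over the 40 bases printed *Igtp* and *Irgm2* share 39 at the same position, *Irgm2* and *Tgtp1* 31, and *Igtp* and *Tgtp1* 30. *Igtp* and *Irgm2* were called lower with a log2 fold change of -0.98 and -1.33, while the level of *Tgtp1* could not be told from background on 5 of the 6 arrays.

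The whole window of *Irgm1* is given because, of the listed names, it had the probe with the largest called change after background correction. This probe, ILMN_2711172 at -1.70, is uncertain in size, and the brightest *Irgm1* probe was at 0.05. ILMN_1234539 of *Irgm1* was at -1.53, close to ILMN_1244513 of *Gbp3* at -1.48. Without Scramble replicate 1 they were at -1.55 and -1.60. The window covers chr11:48871421-48871670 on the minus strand of GRCm38.p6, the 250 bases before the start. Its capitals mark the overlapping ISRE matches, which begin 30 and 24 bases before the start.
Irgm1 upstream window: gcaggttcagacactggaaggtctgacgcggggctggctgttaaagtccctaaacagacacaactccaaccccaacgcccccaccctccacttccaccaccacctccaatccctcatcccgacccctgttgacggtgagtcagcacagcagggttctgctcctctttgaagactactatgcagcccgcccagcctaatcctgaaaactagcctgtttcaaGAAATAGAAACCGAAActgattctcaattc

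Other members of these families, taken as a separate list, were mostly dim. Of their 22 probes 13 were detected on no array and 6 were tested. Of these 6, 3 were called lower, against 13.6% of the tested probes across the array. In limma 0 were called higher, as with the methods' t-test, and 0 were higher when p was left unadjusted and held to 0.05. The median log2 fold change was -0.66, which without background correction was -0.43. *Ifi47*, an effector of the immunity-related family on chromosome 11, read 1234, 1527 and 974 in Scramble and 455, 493 and 330.1 in siDJ-1 myotubes. The groups were far apart, with a log2 fold change of -1.87 (SE 0.20, adjusted p = 0.0031), and its upstream window held neither element, while the windows of *Gbp2b*, *Gbp5* and *Gm12250* held an ISRE match. *Gvin1*, a very large interferon-inducible GTPase, read 2406.5, 2907 and 2573 in Scramble and 1080.5, 1343 and 772 in siDJ-1 myotubes. It too was lower on each siDJ-1 array (log2 fold change -1.45, SE 0.16, adjusted p = 0.00312), although its other 2 probes were not detected. *Mx2*, an antiviral dynamin-like GTPase, fell by less, with a log2 fold change of -0.61 (SE 0.12, adjusted p = 0.0122), and its call was lost without siDJ-1 replicate 1. The probe of *Gbp2b*, listed as GBP1, was at -0.42 (adjusted p = 0.0971), and those of *Irgq* at -0.15 and -0.71 (adjusted p = 0.395 and 0.0782).

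**Figure D3:**
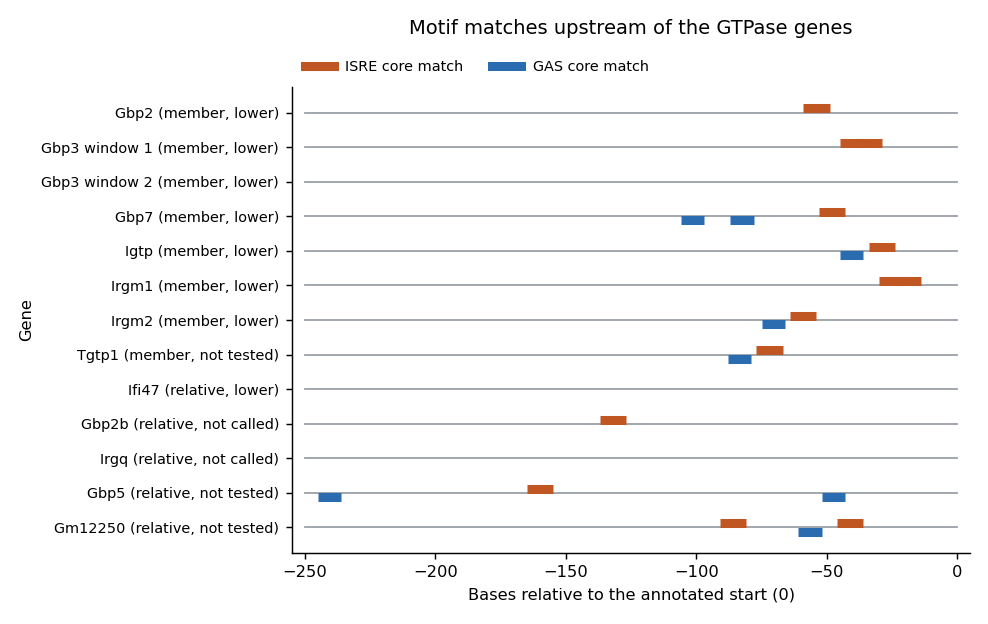
Position of ISRE (upper bars) and GAS (lower bars) core matches in the upstream windows of the GTPase genes and their relatives, in bases relative to the start. Each of the 6 listed GTPase genes with a called probe has an ISRE match that begins at most 64 bases before a start. The window of *Ifi47*, a relative also called lower, holds no match.

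**Figure D4:**
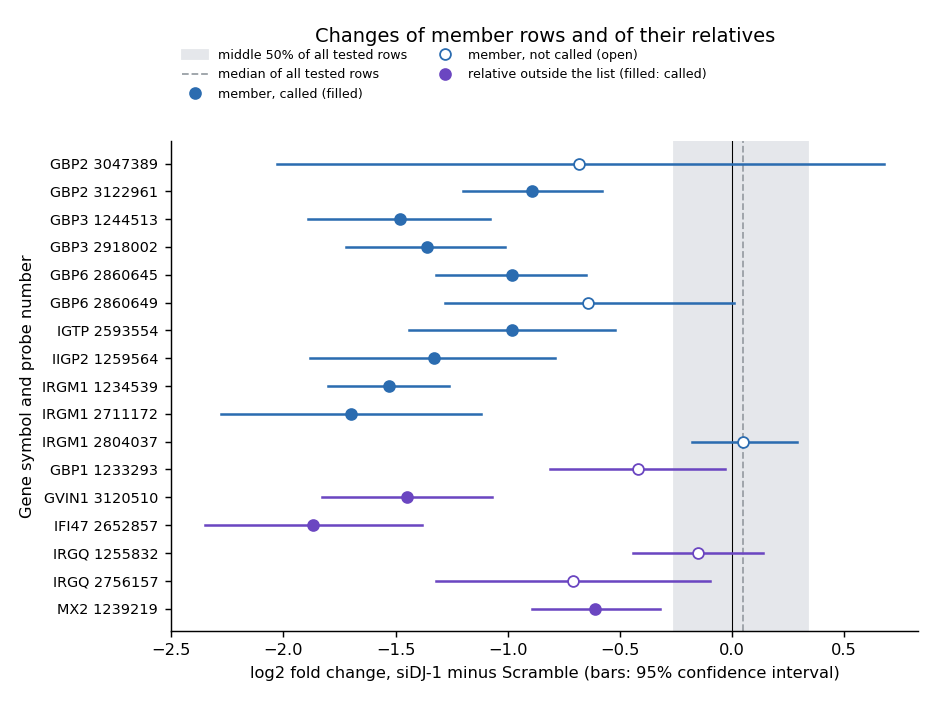
Log2 fold change (siDJ-1 minus Scramble) of the 11 tested GTPase probes and the 6 tested probes of their relatives, with 95% confidence intervals as bars, filled points for called probes, and the median and interquartile range of the tested probes across the array as dashed line and grey band. The 8 called GTPase probes lie between -1.70 and -0.89, and the intervals of the remaining 3 include 0.

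The steps before the GTPases in the pathway were followed next, from ligand to transcription factor. Of 42 probes of interferons and their receptors 29 were detected on no array and 12 were tested. In limma 0 of them were called lower, as with the methods' t-test, and 1 was lower when p was left unadjusted. Across the array 13.6% of the tested probes were called lower. Without Scramble replicate 3 limma called 1 lower. The interferon gamma receptor chain *Ifngr1* was at a log2 fold change of 0.01 (adjusted p = 0.949), the 3 probes of *Ifngr2* at 0.27, 0.16 and 0.23 (adjusted p = 0.168, 0.34 and 0.304). The type I receptor chain *Ifnar2* was at -0.19 and -0.52 (adjusted p = 0.332 and 0.111), and *Ifnar1*, *Ifng* and *Ifnb1* were not detected on any array. The probe called higher, of the type I interferon gene *Ifnab*, was at 0.40 (adjusted p = 0.0438) and kept its call in 3 of the 14 other settings, and of the single arrays only Scramble replicate 1 could be left out without losing it.

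Of 30 tested probes of signalling genes 8 (26.7%) were called lower and 6 (20%) higher, against 13.6% and 16.5% of the tested probes across the array, with a median of -0.09. *Stat2* fell with a log2 fold change of -0.89 (SE 0.15, adjusted p = 0.00839), and *Irf9* was at -0.72 (adjusted p = 0.0115) on 1 probe and at -0.44 (adjusted p = 0.198) on the other. The kinase *Jak1* read 1245, 908 and 919.9 in Scramble and 1612, 1676.5 and 1604 in siDJ-1 myotubes. It was higher on each siDJ-1 array, with a log2 fold change of 0.79 (SE 0.16, adjusted p = 0.0145), but it lost its call without siDJ-1 replicate 1, without siDJ-1 replicate 3 and with the methods' t-test. *Jak2* was higher at 0.57 (SE 0.09, adjusted p = 0.00643) and 0.45 (adjusted p = 0.022), and the second call was lost without Scramble replicate 2 or any 1 of the siDJ-1 arrays.

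None of the 5 probes of *Irf1*, an activator of many GTPase genes, was called, with log2 fold changes between -0.34 and 0.69. Among the inhibitors, *Usp18* fell on both probes with log2 fold changes of -1.55 (adjusted p = 0.00374) and -1.33 (adjusted p = 0.00556). *Ptpn2*, a phosphatase that acts on JAK and STAT proteins, was at -1.53 (adjusted p = 0.00365), although its change was as small as -0.57 in other settings. The *Ptpn2* probe did not pass the stricter filter on dim probes, and the size of its change is uncertain. Of the other inhibitors listed, *Pias1* was called higher on both probes at 0.36 and 0.41 (adjusted p = 0.0263 and 0.0236) and *Pias3* at 0.32 (adjusted p = 0.046) on 1 probe and at 0.36 (adjusted p = 0.0542) on the other, which was not called. The *Pias1* calls were kept in 7 and 9 of the 14 other settings and that of *Pias3* in 3. *Socs1* at 0.61 (adjusted p = 0.093) and *Socs3* at -0.16 (adjusted p = 0.517) were not called. The numbers called higher in this list depended on single arrays and were 1 without siDJ-1 replicate 1, 1 without siDJ-1 replicate 3, and 3 without siDJ-1 replicate 2 or without Scramble replicate 3.

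Other interferon targets were set beside the GTPases. Of 42 tested probes of antiviral effectors 24 were called lower and 2 higher, against 13.6% and 16.5% of the tested probes across the array. The median log2 fold change of the 42 probes was -0.54. The largest change among them was that of *Rsad2*, the enzyme viperin, which read 1323, 1718 and 1485 in Scramble and 353, 495 and 259.6 in siDJ-1 myotubes. The log2 fold change was -2.59 (SE 0.27, adjusted p = 0.00305), and siDJ-1 replicate 2 was again the highest of its group. The probes called higher were 1 of 3 for *Samhd1* at 1.33 (adjusted p = 0.00415, with a change as small as 0.78 in other settings) and 1 of 3 for *Ifitm1* at 0.84 (adjusted p = 0.0208), the latter call lost with the methods' t-test and without siDJ-1 replicate 1, siDJ-1 replicate 2 or Scramble replicate 3. The other tested probes, which were not called, were at 0.01 and 0.15 for *Samhd1* and at -0.33 and -0.16 for *Ifitm1*. Among genes of antigen presentation and other targets of interferon gamma 6 (22.2%) of 27 tested probes were called lower and 2 (7.4%) higher. Their median was -0.27. The chemokine *Cxcl9* was at -1.91 (SE 0.30, adjusted p = 0.00684), and the immunoproteasome subunit *Psmb10* at -1.43 and -1.36 (adjusted p = 0.00234 and 0.0046). Of the probes called higher, that of the nitric oxide synthase gene *Nos2*, a target of interferon gamma in macrophages, read 182.1, 175.5 and 159.1 in Scramble, where no array detected it, and 306.7, 263.4 and 283.2 in siDJ-1 myotubes, where every array did. It passed the filter through the siDJ-1 arrays alone, so the p from the filtered probes is not given; with no filter it was called higher as well. The size of its change is uncertain, as it rests on the background correction. The other probe called higher, 1 of 3 of *H2-D1*, was at 0.48 (adjusted p = 0.0288), while the remaining *H2-D1* probes were at -0.24 and -0.45 (adjusted p = 0.2 and 0.101), and of the single arrays only Scramble replicate 2 could be left out without losing the call.

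The proteins of the ATG8 conjugation system direct these GTPases to vacuole membranes. Of its 16 tested probes 2 (12.5%) were called lower and 3 (18.75%) higher, near 13.6% and 16.5% of tested probes across the array. The median of the 16 probes was 0.15. The lower ones were *Rnf213*, an interferon-induced ubiquitin ligase that is not one of the conjugation enzymes, at -1.84 (SE 0.19, adjusted p = 0.00305) and *Atg3* at -0.43 (adjusted p = 0.0468), whose call was lost without any 1 array other than siDJ-1 replicate 2. The higher ones were *Gabarapl1* at 0.89 (adjusted p = 0.00374), *Atg12* at 0.53 (adjusted p = 0.0105) and *Map1lc3a* at 0.49 (adjusted p = 0.0397), the last lost without any 1 array other than siDJ-1 replicate 2. Dynamin-family GTPases that are made without interferon had 23 tested probes. Of these 23, 3 were called lower and 3 higher, against 13.6% and 16.5% of the tested probes across the array. The median of the 23 probes was -0.06. Their lower count was 0 without siDJ-1 replicate 3 and 1 without Scramble replicate 2 or 3 or siDJ-1 replicate 1 or 2. Their higher count was 0 without siDJ-1 replicate 1 or 3 and 1 without Scramble replicate 1 or 2 or siDJ-1 replicate 2. The median of each of these lists is a description, and none of them was tested against the GTPases.

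**Figure D5:**
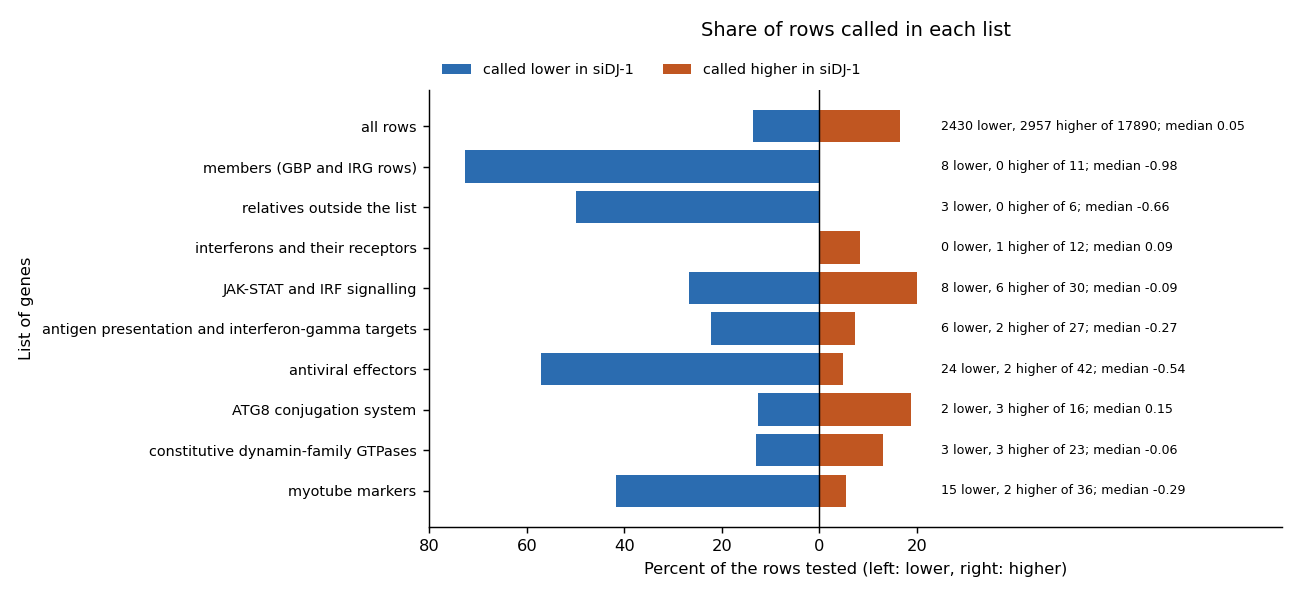
Percent of the tested probes of each list that were called lower (bars to the left) and higher (bars to the right) in siDJ-1 myotubes, with the counts and the median log2 fold change beside them. The GTPases have 8 of 11 probes lower and a median of -0.98, while the tested probes across the array have 13.6% lower, 16.5% higher and a median of 0.05.

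Cells that make these GTPases at high level were looked for by their markers. Of 35 leukocyte probes 27 were detected on no array, and 3, 3 and 2 were detected in Scramble and 5, 4 and 2 in siDJ-1 myotubes. The 3 probes of *Ptprc*, which encodes the pan-leukocyte surface protein CD45, were not detected on any array. The summed signal of the 35 probes, mostly background, was 5346.5, 5737 and 5063 in Scramble and 5462, 5678 and 5107 in siDJ-1 myotubes, so the groups overlapped. The brightest was *Cd14*, at 274, 333 and 279 in Scramble and 226, 282 and 203 in siDJ-1 myotubes, with a log2 fold change of -0.59 (adjusted p = 0.0626). Of the 3 tested probes *Lyz1* was called lower at -0.83 (adjusted p = 0.0162), a call lost without siDJ-1 replicate 1 or 3 and with the methods' t-test, and *Cd68* was at 0.52 (adjusted p = 0.169). Of 11 endothelial probes 1, that of *Vwf*, was tested, at 0.06 (adjusted p = 0.873), and 1 or 2 of the probes were detected on each array.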

How the data were processed

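Total RNA of 6 samples was hybridized to Illumina mouse arrays. The authors deposited, per probe and array, the mean signal intensity, neither normalized nor background-subtracted. The deposited report also gives a detection p-value for each probe. In R 4.3.3 with limma 3.58.1, neqc was applied (normexp with negative controls inferred from detection, offset 16, quantile normalization, log2). Probes were kept if 3 or more of the 6 arrays detected them (p under 0.05), which left 17890, and were fitted with lmFit and eBayes, with Benjamini-Hochberg adjustment over all of them. A RefSeq gene (GRCm38.p6) was matched to 32345 of 45281 probes and to 15 of the 16 GTPase probes. The members and lists were chosen with earlier results of these data known. Named were every GTPase probe, *Park7*, up to 4 called genes per list and direction, the main pathway genes, and the 5 nearest profiles. Scripts were tested on simulated data. Alternatives concerned background correction, scaling to the 75th percentile, filter, variance trend, the methods' t-test, a replicate block, averaging of probes per gene, and each array left out. The methods' t-test is the unmoderated test that the study states for other assays; for the arrays it states a moderated one.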

Additional observations from a re-analysis of the deposited data

How the results depend on the processing

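The number of GTPase probes called lower was between 7 and 9 and the number called higher was 0 by limma and by the methods' t-test in every setting. Their median log2 fold change was -0.76 without background correction and -0.75 without it and with a 75th percentile shift, and between -1.16 and -0.78 otherwise. *Park7* was called in every setting. Across the array 3519 probes were called with no filter, where more probes were tested, and 2559 to 5271 with single arrays left out. Of the 2559 called without siDJ-1 replicate 1, 2530 were among the 5387, and of the 2712 without siDJ-1 replicate 3, 2675. Where no construction is named, the cause was not tested.

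With the replicate number as a block 4350 probes were called across the array, 4061 of them among the 5387, and 8 GTPase probes were lower. The labels do not say whether the numbers pair the samples. Deviations of same-numbered samples correlated weakly, at 0.0537, 0.0474 and 0.0199, which does not settle it. Every sample correlated best with its own number, a hint from the data and not the design. With the block 0 interferon and receptor probes, 2 signalling probes, 1 antigen presentation probe and 1 dynamin-family probe were called higher, and 1 ATG8 probe lower.

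Without background correction the list medians were -0.43 (relatives), -0.35 (antiviral), 0.07 (ATG8) and -0.03 (dynamin family). With a 75th percentile shift as well they were -0.43, -0.35, 0.09 and -0.03. With no filter, which adds undetected probes, they were -0.18, -0.38, 0.05 and 0.00, and -0.04 for interferons and receptors. With the stricter filter the ATG8 median was 0.25 and the signalling median -0.18. With single arrays left out the ATG8 median was 0.05 to 0.21 and the dynamin-family median -0.17 to -0.01.

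Interferon and receptor probes called higher numbered 0 without background correction, the same with the 75th percentile shift, with no filter, with the variance trend and with the methods' t-test. Single arrays left out gave 0 to 1 called lower and 0 to 1 called higher. Signalling probes called higher were 2 with no filter and 1 to 5 with single arrays left out. Antigen presentation probes called lower were 11 without background correction and 12 with the variance trend, and those called higher were 1 with no filter, the stricter filter and the methods' t-test, and 1 to 2 with single arrays left out. Antiviral probes called higher were 1 with the methods' t-test and 1 to 2 with single arrays left out.

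ATG8 probes called lower were 1 with normexp and the 75th percentile shift, with no filter and with the methods' t-test, and 1 to 2 with single arrays left out. Those called higher were 5 without background correction, 5 with normexp and the 75th percentile shift, 7 with the shift and no background correction, 5 with the stricter filter and 5 with the variance trend. Dynamin-family probes called lower were 1 with no filter, 6 with the variance trend and 0 to 3 with single arrays left out, and those called higher were 1 with no filter and with the methods' t-test and 0 to 2 with single arrays left out.

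One limit on these values is signal over background. A dim probe changes its fold with the background correction, and GTPases near background give neither a level nor a fold. With any single array left out fewer probes were called across the array. Probe sequences were not used, so binding of a probe to a related gene was not tested. Over the scalings the median of all tested probes across the array moved by less than 0.1 on the log2 scale. That of the myotube markers moved from -0.29 to -0.07 with normexp and the 75th percentile shift.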
